A study of Mus musculus with 2 samples.

Results

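The stretch of mouse chromosome 15 between the genes Wnt7b and Ppara was examined in maps of acetylated lysine 27 on histone H3 (H3K27ac). It was defined as all H3K27ac peaks that touch the window chr15:85400001-86000000 (mm10), which held 18 of 37234 peaks in the Gata2 KO list and 17 of 34272 peaks in the Gata2 f/f list. The window was chosen by its bases under peaks, far more of them in KO than in f/f, so the KO and f/f values below describe that choice and carry no test. The cells were MA9 leukaemia cells, mouse acute myeloid leukaemia driven by the MLL-AF9 fusion, collected from bone marrow. The Gata2 KO library (genotype Gata2 -/-) lacks the gene of a GATA transcription factor of blood stem and progenitor cells, and the Gata2 f/f library carries it floxed and intact. Per the labels, cells were transduced with Cre or with the control vector MIT and sorted by GFP and tdTomato, and both genotypes were then cultured for 7 to 9 days with IL-3, IL-6 (10 ng/mL) and SCF (20 ng/mL). Each genotype has 1 library, so no difference has a replicate check.

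H3K27ac is written by the acetyltransferases p300 and CBP and marks active promoters and enhancers, and long runs of it often lie at strongly used enhancers. Wnt7b encodes a secreted WNT ligand that signals through Frizzled and LRP receptors and is known for its part in brain vessel formation, where it needs the co-receptor proteins Reck and Adgra2. Ppara encodes a nuclear receptor that pairs with RXR, binds fatty acids and switches on genes of fatty acid oxidation, chiefly in liver, heart and muscle. Between these genes lies the long non-coding RNA gene Lncppara, which spans the microRNA genes Mirlet7c-2 and Mirlet7b. Their products belong to the let-7 family, which represses growth genes and is held back by Lin28 proteins in fetal blood stem cells.

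The mature let-7 sequences of the locus are shown because they identify the nearest annotated microRNA products beside the acetylated stretch. Capitals mark the seed, bases 2 to 8, and the sequences are from RefSeq (GRCm38.p6, plus strand).
let-7c-5p: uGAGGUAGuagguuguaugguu
let-7b-5p: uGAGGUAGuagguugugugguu
These microRNAs share their seed and differ by 1 substitution in 22 bases, A17G from let-7c-5p to let-7b-5p, counted from the 5′ end. The let-7c-5p sequence lies at chr15:85706616-85706637 and the let-7b-5p sequence at chr15:85707325-85707346.

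The read depth behind both lists is unknown. The KO list had the lower median fold enrichment (3.09, f/f 3.51), a peak's height over background as given by the authors' peak caller, which is used here only to describe or filter peaks within their own list. Peaks covered 48.6 Mb of the genome in KO and 46.3 Mb in f/f. On chromosome 15 they covered 2.02 Mb in KO and 1.95 Mb in f/f, a ratio of 1.03 that ranked 14th from the highest among the 20 chromosomes with peaks in both lists. The libraries also differed in sex-linked marks, since Uty, Kdm5d and Eif2s3y were marked at a gene end in KO only and Xist in f/f only. With 1 library per genotype, this difference cannot be told apart from that of genotype, and its part in the results was not tested. A gene end lay within 1 kb of a peak at 50.3% of the 21887 protein-coding genes in KO and at 50.4% in f/f. Of 10 marker genes of MLL-AF9 myeloid leukaemia, 7 had such a peak in KO and 10 in f/f. Of 6 B and T cell markers the number was 2 in both lists, and of 3 erythroid markers it was 1 in both. It was 0 in KO and 1 in f/f of 5 stromal and endothelial markers, and 1 in KO and 3 in f/f of 3 epithelial markers.

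The KO excess of bases under H3K27ac peaks was concentrated in a stretch of 51.1 kb that overlaps no protein-coding gene. The amount of H3K27ac itself was not compared between the libraries. In KO, 6 peaks formed a domain there (chr15:85634195-85685305) with 20.8 kb under peaks, or 40.7% of its length, while 3 f/f peaks in the same span covered 3.79 kb, or 7.41%. A domain is a chain of peaks with gaps of at most 12 kb, leaving out peaks wholly within 2000 bp of the end of a protein-coding gene. This one was taken as the KO chain with the most covered bases in the window. Its KO and f/f values, and those outside it, follow in part from that choice. Chained by the same rule, the 3 f/f peaks in the span stayed separate. The gaps between the 6 KO peaks ran from 3.96 to 10.1 kb. The domain starts 52.4 kb from Wnt7b and ends 18.5 kb before Lncppara, 21.3 kb before Mirlet7c-2, 22.0 kb before Mirlet7b and 49.6 kb before Ppara. Over the whole 600 kb window, 37.8 kb lay under KO peaks and 22.7 kb under f/f peaks, a difference of 15.1 kb. Outside the domain the order was the opposite, at 17.0 kb for KO and 18.9 kb for f/f, so the domain's own difference of 17.0 kb exceeds that of the window.

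**Figure D1:**
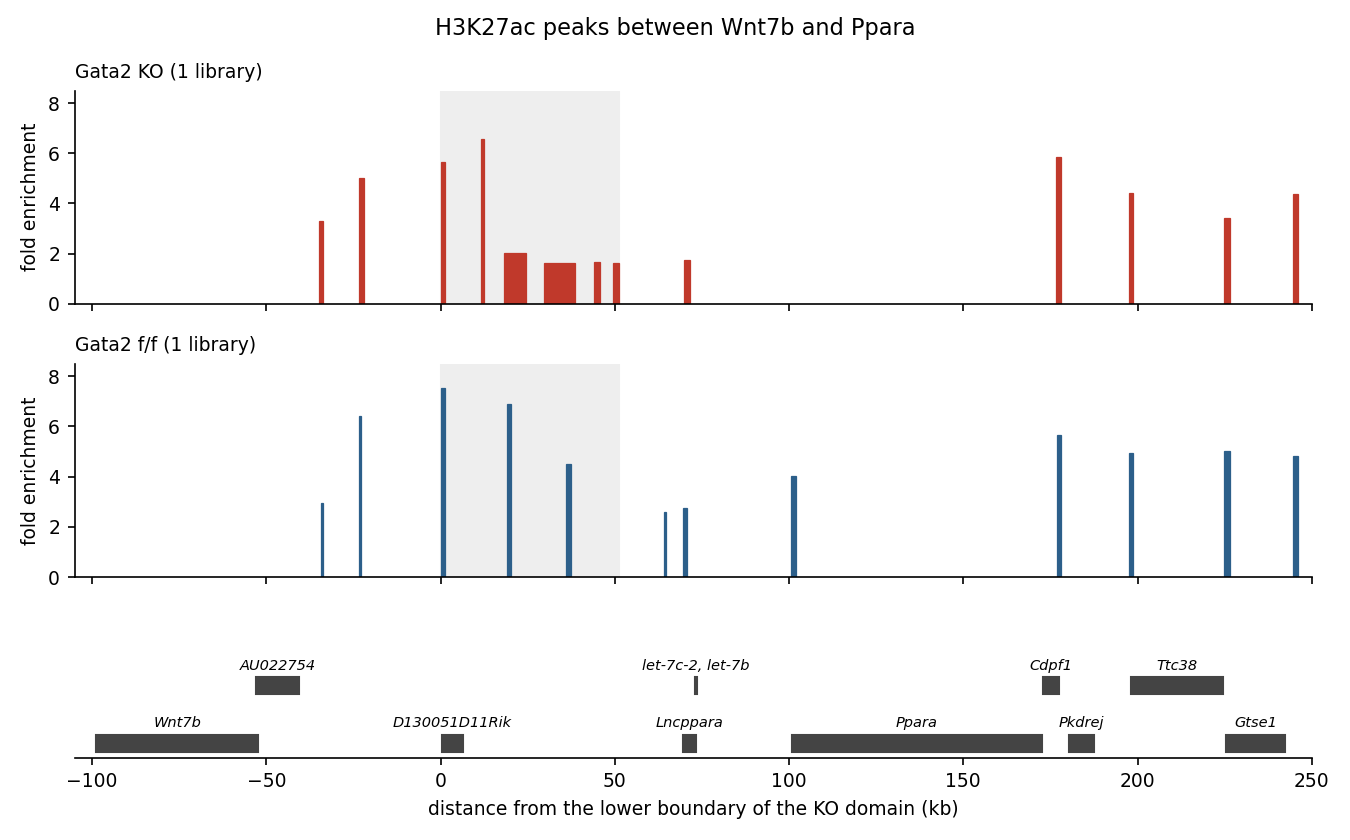
H3K27ac peaks as bars from their start to their end (x axis, kb from the lower boundary of the KO domain), with the authors' fold enrichment as height (y axis), for Gata2 KO above Gata2 f/f, and genes below; the grey span is the KO domain. Inside it the KO list has 6 peaks, among them a wide pair of low fold, where the f/f list has 3 narrow peaks, and the f/f peak at the start of Ppara has no KO counterpart.

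Most of the domain's difference lay in the width of shared peaks. The 2 widest KO peaks of the domain were 6250 bp (chr15:85652523-85658772) and 9041 bp (chr15:85663811-85672851) wide. Together they held 15.3 kb, or 73.5% of the bases under KO peaks in the domain. Each contained a single f/f peak, 1120 bp wide (chr15:85653290-85654409) in the narrower and 1560 bp wide (chr15:85670168-85671727) in the wider. Of the domain's difference of 17.0 kb, these pairs gave 12.6 kb, the 3 KO peaks with no f/f peak gave 4.13 kb, and the remaining shared peak 0.284 kb. In the whole KO list only 30 peaks were at least as wide as the narrower of the pair and only 4 at least as wide as the wider. Without peaks of 5 kb or wider in either list, a setting chosen after seeing the data, 22.5 kb of the window lay under KO peaks and 22.7 kb under f/f peaks. This setting takes out the wide KO pair but keeps its f/f partners of 1120 and 1560 bp. The values are therefore not those of the window without these pairs.

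The wide KO peaks had low fold enrichment for their list. The 6250 bp peak had a fold of 2.03, with 3.21% of KO peaks lower, and the 9041 bp peak 1.64, with 0.432% lower. Low fold is usual for wide peaks, the median over the 113 KO peaks of 5 kb or wider being 1.93 and that over the 128 such f/f peaks 2.14. Among peaks of at least 3-fold enrichment, 12.5 kb of the window lay under KO peaks and 15.7 kb under f/f peaks, the opposite direction. This limit leaves out both wide peaks and keeps their f/f partners. It kept 10 of 18 KO peaks and 12 of 17 f/f peaks of the window. The same limit is not equally strict in both lists, since it lies nearer the KO median fold (3.09) than the f/f median (3.51). By the -log10 p of their own list, the wide peaks stood above 69.5% and 73.4% of KO peaks.

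**Figure D2:**
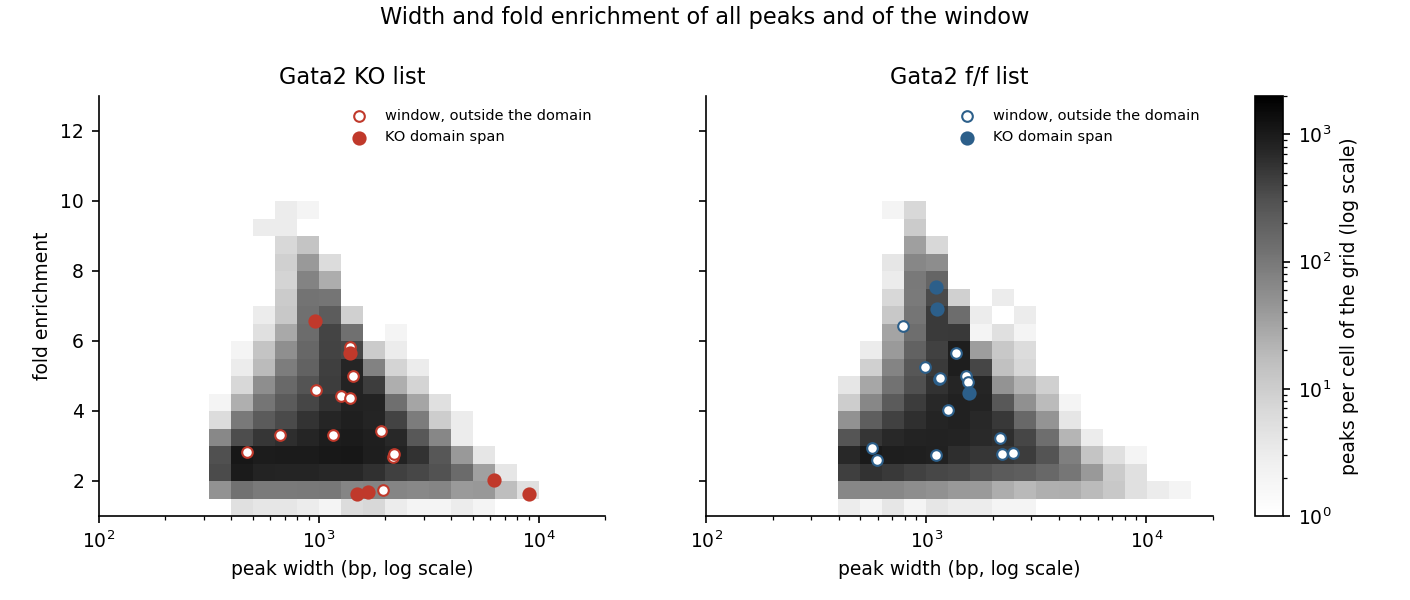
Peak width (x axis, bp, log scale) against the authors' fold enrichment (y axis) for Gata2 KO (left) and Gata2 f/f (right); grey cells count all peaks of the list, filled points are peaks in the span of the KO domain and open points the other peaks of the window. In KO 4 of the 6 domain peaks lie at folds of 1.63 to 2.03, below that list's median of 3.09, and in f/f the 3 peaks of the span lie at 4.50 to 7.53, above that list's median of 3.51.

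Taken in order along the chromosome, the domain began at the start of the long non-coding RNA gene D130051D11Rik, which lies 0.401 kb inside its lower boundary. A peak covered that start in both lists, 1390 bp wide with a fold of 5.66 in KO and 1106 bp wide with a fold of 7.53 in f/f. It stood above 96.3% of peaks by -log10 p in either list. The next peak, chr15:85645707-85646665, was found in KO alone. It was 959 bp wide, and its fold of 6.57 stood above 98% of KO peaks, so it was narrow and high where its neighbours to the right were wide and low. The wide pair followed. The last KO peaks of the domain, 1670 and 1496 bp wide, had folds of 1.68 and 1.63 and also had no f/f counterpart.

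Sharing of peaks in the window was near that of the lists as a whole. Of 18 KO peaks, 3 (16.7%, 95% Wilson interval 5.84 to 39.2) had no f/f peak at an overlap of 1 bp, against 22.6% of all KO peaks. Of 17 f/f peaks, 2 (11.8%, 3.29 to 34.3) had no KO peak, against 16.2% of all f/f peaks. Intervals cover counting error only and take neighbouring peaks of 1 library as independent. Peaks without a partner enter the covered bases by which the window was chosen, so these shares describe that choice in part. All 3 KO peaks without a partner lay in the domain, and both f/f peaks without a partner lay between the domain and the start of Ppara or on it. The peaks just outside the window were a KO peak at chr15:85383253-85384171 with no f/f partner, an f/f peak at chr15:85356974-85358436 with a KO partner, and a shared peak from 86007571 in KO and 86007495 in f/f.

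The other 15 KO peaks each overlapped 1 f/f peak, and 9 of these 15 were wider in KO. Peak width enters the covered bases by which the window was chosen, so the widths compared here describe that choice. The median ratio of KO to f/f width was 1.10, against 0.990 over 28919 overlapping pairs of the genome. In 5 of the 15 pairs the KO peak was at least 1.5 times as wide, against 10.6% of all pairs. All 5 lay between Wnt7b and Ppara, in the order 2.04 and 1.84 before the domain, 5.58 and 5.80 for the wide pair, and 1.76 at Lncppara. Ratios of 5 or more, a limit chosen after seeing the data, were found in 0.322% of all pairs. At the gene starts to the right of Ppara the ratios lay between 0.897 and 1.26.

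**Figure D3:**
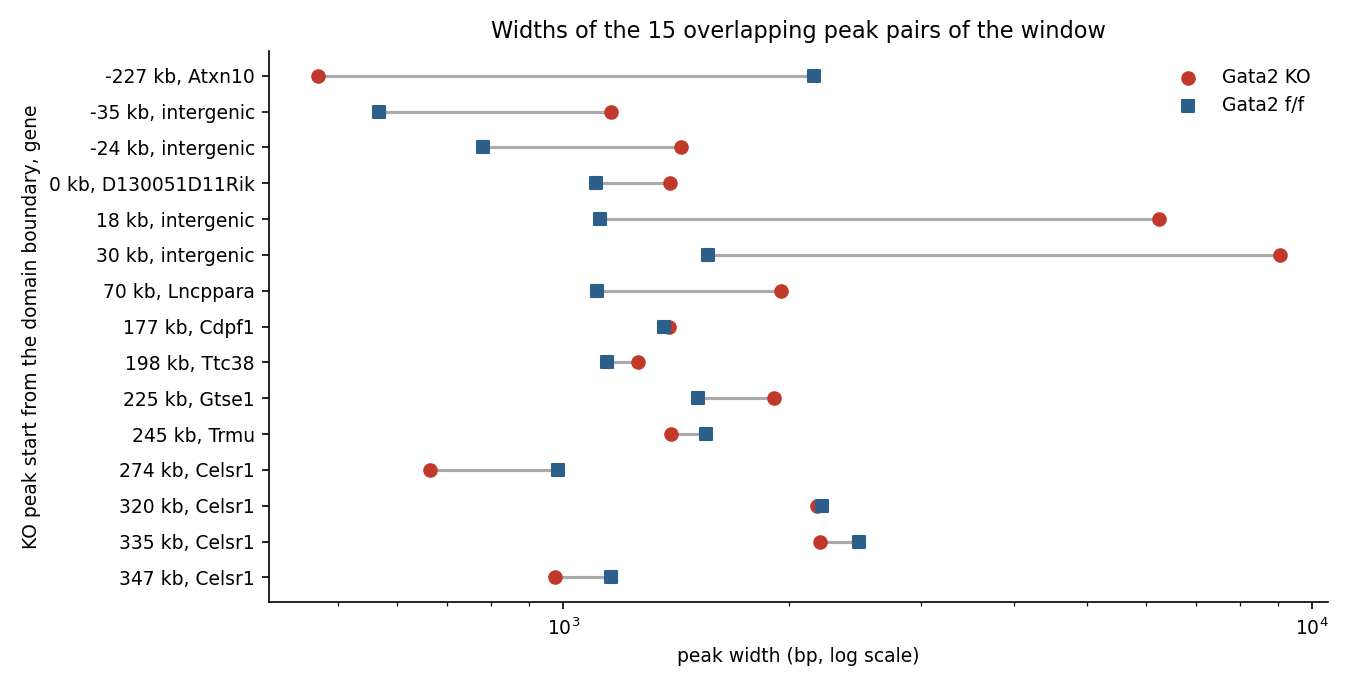
Widths (x axis, bp, log scale) of the 15 overlapping peak pairs of the window, Gata2 KO as circles and Gata2 f/f as squares, in order along the chromosome with the KO peak's start from the domain boundary and the overlapped gene. The pairs at 18 and 30 kb have KO widths of 6250 and 9041 bp beside f/f widths of 1120 and 1560 bp, while the pairs from Cdpf1 onward lie closer together.

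In bins of 25 kb the difference was sharply placed. The bin with the wide pair had 61.2% of its bases under peaks in KO and 10.7% in f/f. The next bin to the right had 12.7% in KO and 2.38% in f/f. In the other 22 bins the lists differed by at most 1.69 kb. Of all 24 bins, 9 had more covered bases in KO, 6 fewer, and 9 held no peak in either list.

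**Figure D4:**
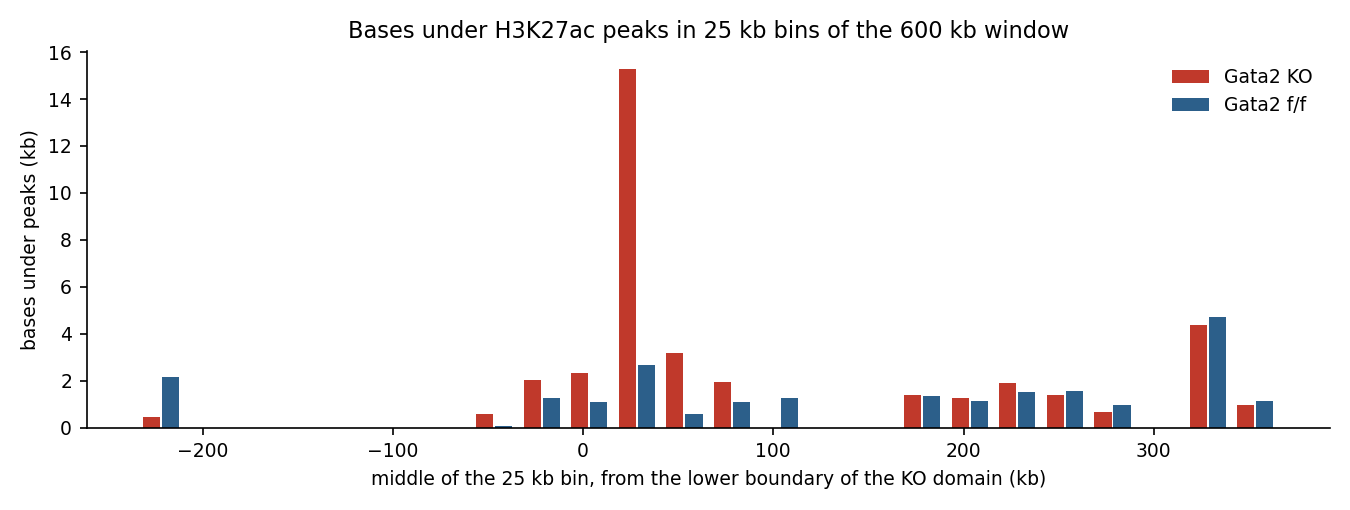
Bases under peaks (y axis, kb) in 25 kb bins of the window (x axis, middle of the bin in kb from the lower boundary of the KO domain), with Gata2 KO left of Gata2 f/f in each bin. A single bin, at 15.3 kb for KO and 2.68 kb for f/f, stands above the rest.

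Set beside other stretches of the genome, the window was high but not alone. Among 2340 windows of 600 kb with at least 5 kb under peaks in either list, it ranked 12th by the KO minus f/f difference. It was chosen for this same difference, and the grid of windows was laid to fit it, so the rank only describes that choice. The 5th and 95th percentiles of that difference were -5.92 and 8.47 kb and the median was 0.779 kb. KO covered at least 1.5 times the f/f bases in 8.25% of the windows, and this window's ratio of 1.67 was among them, while the opposite held in 7.18%. On chromosome 15 alone 7 of 94 windows passed that ratio, with a median difference of 1.06 kb. The 3 windows closest to it in difference lay on chromosome 8 (60.6 kb in KO, 45.4 kb in f/f), chromosome 16 (26.2 kb in KO, 11 kb in f/f) and chromosome 6 (14.9 kb in KO, 0 kb in f/f). Their widest KO peaks with no f/f peak lay within Hsd17b2, a steroid dehydrogenase gene, within Rcan1, a calcineurin inhibitor gene, and within Vps50, a vesicle trafficking gene. The chromosome 6 window lies in a stretch where the f/f list has no peak before position 4587644.

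**Figure D5:**
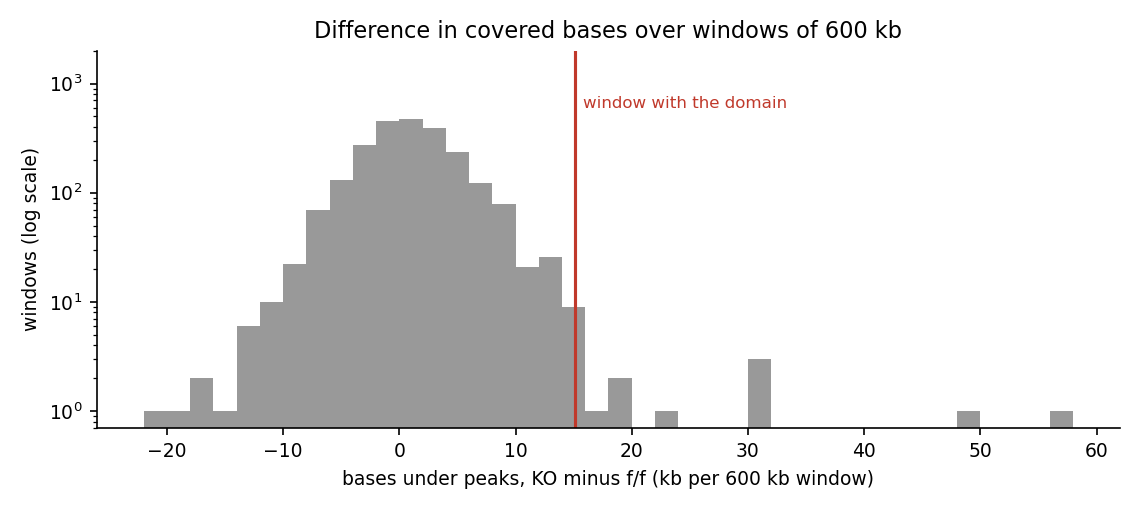
Number of 600 kb windows (y axis, log scale) by the difference in bases under peaks, Gata2 KO minus Gata2 f/f (x axis, kb per window); the red line marks the window chr15:85400001-86000000. It lies at 15.1 kb, the difference it was chosen for, beyond the 95th percentile of 8.47 kb and below the few windows that reach further right.

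Neither protein-coding gene that bounds the stretch had a peak in KO within its body. Wnt7b (chr15:85535437-85581821) had no peak in its body in either list, the nearest lying 17.6 kb away in KO and 18.1 kb away in f/f. That nearest peak was shared, 1159 bp wide in KO and 567 bp in f/f, and the next, 28.9 kb from the gene in KO, was 1435 bp wide in KO and 781 bp in f/f. The long non-coding RNA gene AU022754, which starts inside the upper end of Wnt7b, had no peak either, although its promoter holds 49 CpG dinucleotides, a count above that of about 99% of the promoters in the table. The coding gene 7530416G11Rik on the other side of Wnt7b lay 85.0 kb from any peak in KO and in f/f.

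Ppara (chr15:85734910-85806851, plus strand) had a peak at its start in f/f and none in KO. The f/f peak (chr15:85734874-85736124) was 1251 bp wide with a fold of 4.02, and by its -log10 p of 9.15 it stood above 41.0% of the f/f list. In KO the nearest peak lay 29.0 kb before that start, over Lncppara, and no KO peak touched the gene. The gene and 25 kb on both sides had 1.19% of bases under peaks in KO and 2.23% in f/f, so the locus of Ppara was less covered in KO while the stretch before it was more covered. A second f/f peak without a KO partner (chr15:85698231-85698825), 595 bp wide with a fold of 2.60, lay between the domain and Lncppara.

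At the let-7 genes the lists shared a peak in the host gene. It lay inside Lncppara, 0.160 kb from its start in KO and 0.127 kb in f/f, and was 1953 bp wide in KO and 1109 bp in f/f. It was a weak call in both, with a -log10 p of 3.15 in KO and 4.36 in f/f, and it drops out of KO when the same number of peaks is taken from each list. The KO peak ended 0.718 kb before Mirlet7c-2 and 1.43 kb before Mirlet7b, and the f/f peak 1.60 and 2.31 kb before them. No peak covered either microRNA gene. Within 25 kb of Mirlet7b, 6.89% of bases lay under peaks in KO and 3.4% in f/f. These flanks reach into the last part of the domain.

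The promoters of these genes are shown because they carry the marked and unmarked starts around the domain (RefSeq, GRCm38.p6, plus strand, 250 bases before to 50 after the start, CpG dinucleotides in capitals).
Ppara: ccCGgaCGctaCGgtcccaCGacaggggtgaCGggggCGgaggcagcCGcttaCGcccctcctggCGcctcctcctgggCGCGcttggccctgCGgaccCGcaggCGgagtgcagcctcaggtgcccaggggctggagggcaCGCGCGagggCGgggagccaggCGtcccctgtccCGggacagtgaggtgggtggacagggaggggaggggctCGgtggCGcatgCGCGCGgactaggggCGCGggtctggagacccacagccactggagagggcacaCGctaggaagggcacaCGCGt
D130051D11Rik: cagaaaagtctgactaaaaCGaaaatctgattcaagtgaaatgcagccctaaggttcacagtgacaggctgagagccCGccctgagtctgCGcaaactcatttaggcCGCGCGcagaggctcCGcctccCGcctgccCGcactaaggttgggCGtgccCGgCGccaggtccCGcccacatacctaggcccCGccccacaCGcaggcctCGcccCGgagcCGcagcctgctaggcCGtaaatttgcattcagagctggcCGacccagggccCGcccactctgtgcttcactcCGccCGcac
Lncppara: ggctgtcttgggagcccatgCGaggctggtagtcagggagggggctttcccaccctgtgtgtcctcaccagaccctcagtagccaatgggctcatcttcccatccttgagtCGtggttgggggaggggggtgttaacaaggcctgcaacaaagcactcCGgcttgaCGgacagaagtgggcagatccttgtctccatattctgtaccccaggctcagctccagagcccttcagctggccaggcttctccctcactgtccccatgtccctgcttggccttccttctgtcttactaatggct
The Ppara promoter (chr15:85735526-85735825) holds 30 CpG dinucleotides, that of D130051D11Rik (chr15:85634346-85634645) 23 and that of Lncppara (chr15:85703523-85703822) 4, against a median of 7 over 32851 promoters. The GC box GGGCGG, searched on both strands, occurs 2 times at Ppara, 5 times at D130051D11Rik and 0 times at Lncppara, and 35.7% of all promoters hold it. None of the 3 windows holds a GATA motif (AGATAA and AGATAG and TGATAA and TGATAG, on either strand), which 29.8% of all promoters hold.

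Except for Pkdrej, the coding genes of the window to the right of Ppara carried marks in both lists. Cdpf1, Ttc38, Gtse1, a G2 and S phase gene, and Trmu, a mitochondrial tRNA-modifying enzyme gene, each had a shared peak at a start in KO and in f/f. Their locus coverage, the percent of bases under peaks in the gene and 25 kb on both sides, differed by -0.12 to 0.48 points, KO minus f/f. Pkdrej, a gene of the polycystin family expressed in testis, had no peak at its ends in either list. Celsr1, an atypical cadherin gene of planar cell polarity, had 4 shared peaks inside the window, and its locus coverage was 5.88% in KO and 7.51% in f/f. At its upper end, beyond the window, Celsr1 had a peak within 1 kb in f/f and none in KO. Atxn10 on the far left had an intragenic peak of 470 bp in KO and 2161 bp in f/f, and its locus coverage was 2.83% in KO and 3.55% in f/f.

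Genes of the pathways around this locus were then described by locus coverage. Over 21887 protein-coding genes the median difference was 0, with 40.6% higher and 33.9% lower in KO. Of these genes 5.9% were at least 3 points higher in KO and 2.78% at least 3 points lower, and the gene ends were marked in KO alone at 1.6% of genes and in f/f alone at 1.83%. Gene ends count as marked in a list with a peak within 1 kb of either end, and in that list alone where the other has none within 5 kb. Of 12 PPAR and RXR receptors and coregulators, 6 were higher and 5 lower in KO, with a median difference of 0.10 points. Rxra, the partner receptor of PPARA, had 8.97% in KO and 5.50% in f/f, Rxrb 15.8% in KO and 12.7% in f/f, and Ppard 15.4% in KO and 12.6% in f/f. The corepressor genes Ncor1 (2.25% in KO, 4.0% in f/f) and Nrip1 (0 in KO, 1.69% in f/f) were lower, and Nrip1 was the only member with gene ends marked in 1 list alone, in f/f. Ppara, with a gene-end peak in f/f and none in KO, did not count, since a KO peak lay 4.05 kb from its upper end.

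Known PPARA target genes went both ways, 13 of 28 being higher and 11 lower in KO with a median difference of 0. Over all protein-coding genes 40.6% were higher and 33.9% lower. Hadhb, a subunit of the mitochondrial trifunctional protein, had 7.33% in KO and 4.07% in f/f, and Ucp3, a mitochondrial carrier gene, 14.8% in KO and 12% in f/f. Cpt1a, the gate enzyme of mitochondrial fatty acid uptake, had 17.5% in KO and 0 in f/f, with gene ends marked in KO alone, but it lies in the start of chromosome 19 where the f/f list has no peak before position 4194303. Fgf21, a hormone gene, had 9.46% in KO and 18% in f/f with gene ends marked in f/f alone. The thioesterase gene Acot1 had 7.53% in KO and 14.3% in f/f, and the fatty acid transporter gene Cd36 had 0 in KO and 3.32% in f/f.

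Of 19 WNT ligand genes, 8 were higher and 6 lower in KO, the median difference was 0 and no member differed by 3 points. For this and the other WNT lists below, 40.6% of all protein-coding genes were higher in KO and 33.9% lower. Gene ends were marked in KO alone at 1.6% of all protein-coding genes and in f/f alone at 1.83%. Wnt7b itself had 1.20% in KO and 0.588% in f/f. The largest values higher in KO were at Wnt9b (4.77% in KO, 3.46% in f/f), Wnt16 (0.991% in KO, 0 in f/f) and Wnt4 (3.03% in KO, 2.18% in f/f), and the largest lower ones at Wnt10b (5.65% in KO, 8.52% in f/f), Wnt5b (6.68% in KO, 7.79% in f/f) and Wnt1 (5.77% in KO, 6.70% in f/f). The ends of Wnt3 were marked in f/f alone. Among 20 receptors and co-receptors, 6 were higher and 9 lower, with gene ends marked in f/f alone at the Frizzled genes Fzd1, Fzd3, Fzd6 and Fzd8 and at the kinase-like receptor gene Ryk, and in KO alone at Lrp5, which lies in the same start of chromosome 19 as Cpt1a. Fzd4 had 1.95% in KO and 5.41% in f/f, Fzd8 0 in KO and 3.20% in f/f, and Fzd7 4.40% in KO and 6.50% in f/f. The co-receptor gene Lrp6 had 4.49% in KO and 1.86% in f/f, and Lgr6 4.06% in KO and 2.28% in f/f. The WNT7-specific partners Reck (8.18% in KO, 7.64% in f/f) and Adgra2 (6.06% in KO, 5.04% in f/f) were higher in KO by 0.54 and 1.02 points. Reck had a gene-end peak in both lists, while Adgra2 had one in f/f and not in KO. Intracellular WNT factors and targets were higher in 12 of 25 and lower in 11, with Gsk3a (22.8% in KO, 19% in f/f), Dvl3 (17.9% in KO, 14.3% in f/f) and Dvl1 (12.8% in KO, 9.38% in f/f) the largest one way and Rnf43 (13.5% in KO, 17.3% in f/f), Axin1 (4.59% in KO, 7.91% in f/f) and Bcl9 (1.36% in KO, 4.17% in f/f) the other. Bcl9 and Nkd1 were marked at gene ends in f/f alone.

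Among the 12 let-7 family genes, 7 were higher and 2 lower in KO, with a median difference of 0.91 points. Over all protein-coding genes the shares were 40.6% and 33.9%. That is an unlike set, since the locus of a short microRNA gene is nearly all 25 kb flanks. Shares over all microRNA genes were not computed. The 7 come from 4 loci, since Mirlet7a-1, Mirlet7d and Mirlet7f-1 lie together on chromosome 13 and Mirlet7b and Mirlet7c-2 on chromosome 15. Mirlet7b and Mirlet7c-2 had the largest difference, 3.48 points each, on largely the same bases, and were the only members past 3 points. Both lie in the window chosen for its KO excess, so their values describe that choice. Mirlet7a-2 followed with 1.28% in KO and 0 in f/f, and Mirlet7i was lower (5.57% in KO, 6.53% in f/f). Of 28 let-7 processing factors and known targets, 9 were higher and 16 lower in KO (40.6% and 33.9% of all protein-coding genes), with a median of -0.21 points. Hmga1, a chromatin protein gene, had 33.6% in KO and 23.8% in f/f, and the uridylyltransferase gene Tut7 had 6.99% in KO and 4.33% in f/f. Zbtb16, a transcription factor gene of progenitors, had 0.549% in KO and 7.78% in f/f and was marked at its ends in f/f alone, as was Tut4 (1.15% in KO, 2.69% in f/f). Trim71 (4.71% in KO, 8.26% in f/f) and the cyclin gene Ccnd2 (6.98% in KO, 9.95% in f/f) were also lower. Lin28b, whose product blocks let-7 maturation, had no base under peaks in either list.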

How the data were processed

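H3K27ac ChIP-seq peak lists of 2 libraries, 1 Gata2 KO and 1 Gata2 f/f, were used; groups follow the genotype label. BWA, SAMtools, MACS2 and build mm10 are named in the submitters' processing notes. Their versions and settings, any control library and the number of reads were not given in the sources used here. For each peak the authors deposited a fold enrichment (a ratio to the background) beside -log10 values of p and q; these describe or filter peaks within a list only. Covered bases depend on the calls, since deeper or better enriched libraries give more and wider peaks. Only chromosomes 1 to 19, X and Y were used, and bases were counted on their union per list. Genes and starts came from RefSeq tables of GRCm38.p6, the assembly of mm10, where all 144 list symbols were found. Computation used Python 3.11.15, pandas 2.3.3, NumPy 2.4.6 and SciPy 1.17.1, tested on simulated intervals. Alternatives changed the peaks kept, the window, the overlap and the stitching. The members and gene lists were chosen with earlier results of these data known. Named genes are all coding and microRNA genes of the window, and per list up to 3 members each way with the largest difference and those with a gene-end peak within 1000 bp in 1 list alone (none within 5000 bp in the other). A gene that this rule names is not reported here.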

Additional observations from a re-analysis of the deposited data

How the results depend on the processing

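The KO excess of the window (15.1 kb as reported) rests on 2 wide peaks of low fold. It was 13.8 kb among peaks of -log10 q 5 or more, 13.2 kb with list lengths made equal at 34272, 15.1 kb with the strongest 20000 peaks and 10.9 kb with the window widened by 200 kb on each side. It turned to -3.17 kb with peaks of at least 3-fold enrichment and to -0.167 kb without peaks of 5 kb or wider, a setting chosen after seeing the data. Both settings remove the wide KO pair by construction and keep its f/f partners, which lowers the KO value alone for these pairs. The domain's excess (17.0 kb as reported) was 15.5 kb among peaks of -log10 q 5 or more and with the strongest 20000 peaks, 17.3 kb with stitching within 20 kb and 7.48 kb within 5 kb, where the widest peak alone was the domain. With at least 3-fold peaks the largest domain lay at chr15:85599433-85612129 (1.81 kb), and without peaks of 5 kb or wider at chr15:85969216-85982467 (-0.339 kb). KO peaks with no f/f peak numbered 3 as reported, 2 among peaks of -log10 q 5 or more, at 3-fold enrichment and with the strongest 20000, and 6 in the wider window or when 50% of a peak had to be covered. Those of f/f numbered 2 as reported, 1 with the strongest 20000, 3 with equal list lengths or 50% covered, 4 at 3-fold enrichment and without wide peaks, and 6 in the wider window. Both counts were as reported in the other settings. No paired analysis was possible because each genotype has 1 library. Depth is unknown, so whether it limits the calls was not tested.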

Other observations

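From the first wide peak to Lncppara, 5 successive KO peaks over 53.4 kb had folds between 1.63 and 2.03. Over the whole KO list 4.31% of peaks lay below a fold of 2.1, a limit chosen after seeing the data. Runs of 5 or more such peaks, with gaps of at most 25 kb, numbered 19 in the KO list, and the longest held 13 peaks. In the f/f list 2.49% of peaks lay below that limit, such runs numbered 2, and the longest held 5 peaks. Of the coding genes next to the window, Gramd4 (4.42% of its locus under peaks in KO, 6.26% in f/f) and Cerk, the ceramide kinase gene (9.51% in KO, 11.9% in f/f), were less covered in KO, while Tbc1d22a (7.79% in KO, 5.80% in f/f) and Fbln1 (3.01% in KO, 2.47% in f/f) were more covered.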
